A study of Mus musculus with 6 samples.

Results

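Aim2, Ifi203, Ifi204, Ifi205 and Mndal are mouse genes of the p200 family (also called HIN-200 or PYHIN), which lie in a cluster on chromosome 1. They were chosen by gene name, with earlier results of these data known, and are 5 of the 23398 genes in the expression table. The table also names 9 other genes of the family, which are described beside them. The libraries came from dendritic cells grown out of mouse bone marrow in DMEM medium with 10% fetal bovine serum. They were exposed for 12 hours to vehicle (3 libraries) or to calcium hydroxide (Ca(OH)2) nanoparticles (3 libraries), and 1 µg of total RNA went into each library. The labels give no mouse strain, age, sex or genotype and no particle dose, and they do not say whether the libraries of a group came from separate mice or cultures. The p-values therefore measure the spread between these libraries, which may be technical.

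Proteins of the p200 family recognise DNA through HIN domains, and most also carry a pyrin domain that binds other pyrin proteins. AIM2 is the best known of them. It binds DNA in the cytosol and recruits the adaptor ASC (encoded by Pycard), which leads to activation of caspase-1, cleavage of interleukin-1β and interleukin-18, and gasdermin D pores. Many family members are interferon-inducible, and p204 (Ifi204) has been described as a DNA sensor that acts upstream of STING. In dendritic cells and macrophages such sensors respond to microbial DNA and to the cell's own DNA when it reaches the cytosol.

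The start regions of these genes are shown so that members can be compared with each other. The sequences are the 250 bases before a RefSeq start of each gene on GRCm38.p6, written 5′ to 3′ on the gene's own strand. These starts can lie far from the outer ends of the gene models given below, as for Aim2 and Mndal. Capitals mark GAAA-NN-GAAA (N is any base, the hyphens only set the parts off), searched on both strands, the core of the interferon-stimulated response element (ISRE) that IRF9 and other interferon regulatory factors are known to bind. The windows are chr1:173420354-173420603 (plus strand) for Aim2, chr1:173942493-173942742 for Ifi203, chr1:173880188-173880437 for Mndal and chr1:174031756-174032005 for Ifi205 (all minus strand). No sequence is printed for Ifi204.
Aim2: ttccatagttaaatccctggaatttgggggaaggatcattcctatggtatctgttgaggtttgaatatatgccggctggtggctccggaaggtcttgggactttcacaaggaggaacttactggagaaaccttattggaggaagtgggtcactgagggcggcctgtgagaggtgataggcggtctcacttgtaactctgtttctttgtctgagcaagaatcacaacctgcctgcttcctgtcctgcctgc
Ifi203: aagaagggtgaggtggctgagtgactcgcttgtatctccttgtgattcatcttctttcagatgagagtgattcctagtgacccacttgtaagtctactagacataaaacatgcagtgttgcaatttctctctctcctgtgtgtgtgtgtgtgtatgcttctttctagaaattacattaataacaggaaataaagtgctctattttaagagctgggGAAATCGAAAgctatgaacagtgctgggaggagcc
Mndal: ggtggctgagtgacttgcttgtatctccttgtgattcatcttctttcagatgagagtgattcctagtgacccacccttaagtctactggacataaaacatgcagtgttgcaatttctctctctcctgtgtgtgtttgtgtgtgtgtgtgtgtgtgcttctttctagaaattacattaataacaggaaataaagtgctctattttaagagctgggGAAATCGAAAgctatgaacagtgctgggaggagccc
Ifi205: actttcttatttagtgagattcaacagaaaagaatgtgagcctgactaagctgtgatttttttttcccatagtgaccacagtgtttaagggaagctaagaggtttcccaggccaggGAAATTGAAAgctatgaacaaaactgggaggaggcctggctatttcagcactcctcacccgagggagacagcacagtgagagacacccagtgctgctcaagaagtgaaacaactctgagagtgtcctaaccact

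The Ifi203 and Mndal windows each held GAAATCGAAA close to the start, with its last base 26 and 27 bases upstream. Ifi205 held GAAATTGAAA ending 125 bases upstream, and the complementary form TTTCACTTTC between 24 and 33 bases after the start. The Aim2 window of 300 bases (250 before the start and 50 after) held no match. The Ifi203 and Mndal windows were near copies of each other, identical at 233 of 261 aligned positions (89.3%) with a shared run of 96 bases. Aim2 was 46.05% to 50.3% identical to the other windows, with no shared run over 9 bases. Low identity was not particular to Aim2. Ifi205 was 47.85% identical to Ifi203 and 47.47% to Mndal, with a longest shared run of 14 bases in each pair. Ifi203 has a further annotated start, not printed, whose window held no match, and Mndal has a further start whose window held TTTCTCTTTC. The printed Ifi203 window lies close to base 173942491, the outer end of the Mndal gene model. Over the whole family 9 of the 12 genes with a window had a match in at least 1 window, against 3.99% of all 27025 genes with windows of the same length. Ifi209 and Ifi202b were the others without one. Of the tested genes without a match, Aim2 had a log2 change of 0.53 and Ifi209 of 3.76. The tested genes with a match ran from 1.03 (Ifi207) to 5.99 (Ifi205). The part of a match in these changes was not tested. A match describes letters and is not a measured site of binding.

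Library facts that bear on every value below are few. Values are FPKM (fragments per kilobase of gene model, scaled per library by the authors), so levels can be compared between genes on a per-length scale. The values came from 17281219 to 21976004 recovered reads per library. Nanoparticle library 1 stood apart. Across tested genes its correlation in log2(FPKM + 1) with the other nanoparticle libraries was 0.928 and 0.942, against 0.9895 between those libraries and 0.993 to 0.994 between vehicle libraries. The tests are limma's moderated test on log2(FPKM + 1) over 10682 genes with Benjamini-Hochberg adjustment, and a gene is said to rise or fall where the adjusted p is under 0.05. Under this rule 33.2% of all tested genes were called, 17.0% higher and 16.2% lower with nanoparticles.

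All 5 members were higher in every nanoparticle library than in any vehicle library, and all 5 passed the test, where 17.0% of all tested genes were called higher, 52.1% had groups that did not overlap in either direction and 25.9% were higher without overlap. Their median log2 change was 3.17, against -0.001 over all tested genes. Without nanoparticle library 1 the 5 members still passed, where 34.3% of all genes were called higher, and their median was 2.83. Ifi205 reached the filter on low values only through its nanoparticle libraries and so had to differ, while the other 4 passed it in both groups. The members did not rise alike. Aim2, which with Mndal was the most abundant in vehicle, rose 1.48-fold in its mean and was the least abundant with nanoparticles. Against their vehicle means, Ifi203, Ifi204 and Mndal were 15.7 to 23.2-fold higher in nanoparticle library 1 and 6.88 to 13.4-fold higher in libraries 2 and 3, and Ifi205 was at least 171-fold higher in each. In RNA from whole cultures, more RNA per cell and more cells of a type cannot be told apart.

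**Figure D1:**
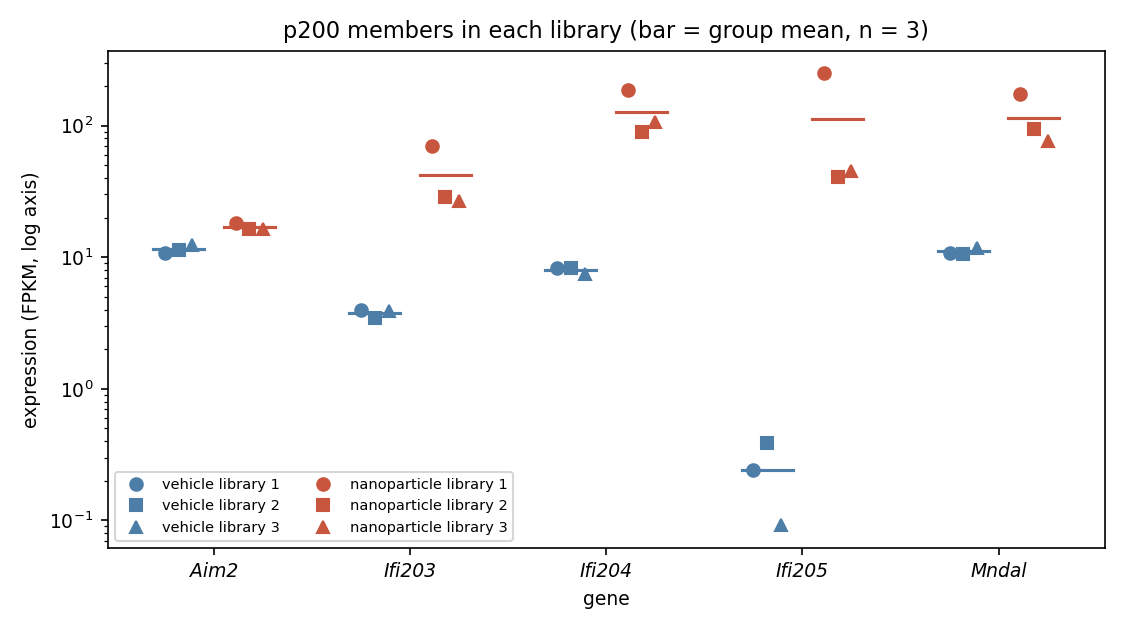
Expression of the 5 p200 members in FPKM on a log axis in each library. Symbols are libraries, bars are group means of 3 libraries, blue is vehicle and red is nanoparticle. Aim2 sits between 10.8 and 18.4 FPKM throughout, and Ifi205 moves from under 0.4 to over 40 FPKM.

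Aim2 (ENSMUSG00000037860, protein coding, plus strand of chromosome 1, 173350879 to 173466040 in GENCODE M21 on GRCm38) was at 10.8, 11.4 and 12.4 FPKM in vehicle libraries 1 to 3 and at 18.4, 16.4 and 16.4 FPKM in nanoparticle libraries 1 to 3. The groups did not overlap, and the nanoparticle libraries lay within 2 FPKM of each other, so nanoparticle library 1 did not stand out for this gene. Mean Aim2 expression was 11.5 ± 0.787 FPKM (SD, n = 3) in vehicle, and nanoparticle libraries averaged 17.1 ± 1.13 FPKM (SD, n = 3). The fitted log2 difference was 0.53 (SE 0.102, limma adjusted p = 0.0091). The values rest on 754 to 904 reads per vehicle library and 951 to 1107 per nanoparticle library. This is the member whose call depends on the processing. When each library was divided by its number of recovered reads, the log2 change of Aim2 was 0.21 (limma adjusted p = 0.172), and with libraries brought to an equal FPKM sum it was 0.09 (limma adjusted p = 0.623). Those scalings moved the median over all tested genes to -0.28 and -0.44 (log2), and relative to that median Aim2 was higher by 0.49 and 0.53. Without vehicle library 1 or 2 the call was also lost, at log2 changes of 0.49 (limma adjusted p = 0.0553) and 0.52 (limma adjusted p = 0.0541). Larger log2 changes than that of Aim2 were fitted for 17.04% of the tested genes.

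Ifi204 (ENSMUSG00000073489, minus strand, 173747293 to 173766943) encodes p204. It was at 8.22, 8.27 and 7.52 FPKM in vehicle and at 186, 89.5 and 107 FPKM with nanoparticles. Every nanoparticle library was more than 10 times the vehicle mean, at 23.2, 11.2 and 13.4-fold. Ifi204 rose by 3.77 on the log2 scale (SE 0.267, limma adjusted p = 0.000245), and by 3.46 without nanoparticle library 1. Ifi204 was the most abundant member with nanoparticles on average, at 128 ± 51.4 FPKM (SD, n = 3).

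Mndal (ENSMUSG00000090272, minus strand, 173849126 to 173942491), named for its likeness to the myeloid nuclear differentiation antigen, was at 10.8, 10.7 and 11.9 FPKM in vehicle and at 174, 94.5 and 76.4 FPKM with nanoparticles. In vehicle its range overlapped that of Aim2, and it lay above Aim2 in every nanoparticle library. Mndal rose by 3.17 on the log2 scale (SE 0.296, limma adjusted p = 0.00062), and 2.83 without nanoparticle library 1. Ifi203 (ENSMUSG00000039997, minus strand, 173920407 to 173942672) was at 4.0, 3.44 and 3.87 FPKM in vehicle and at 70.3, 28.5 and 26.8 FPKM with nanoparticles. Ifi203 rose by 3.03 (SE 0.362, limma adjusted p = 0.00148), and 2.59 without nanoparticle library 1. The gene model of Mndal reaches over that of Ifi203, yet they share 37 exonic bases, which is 1.02% of Mndal and 0.552% of Ifi203. Their promoter windows are the near copies shown above.

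Ifi205 (ENSMUSG00000054203, minus strand, 174011998 to 174031810) encodes p205, a pyrin and HIN protein reported to control expression of the adaptor ASC. It was nearly silent in vehicle, at 0.240, 0.386 and 0.0917 FPKM, which rest on 20, 32 and 8 reads. It reached 250.1, 40.9 and 45.3 FPKM with nanoparticles, from 17058, 2824 and 3647 reads. Nanoparticle library 1 thus held over 5 times the level of the others, and the ratio to the vehicle mean was 1044, 171 and 189-fold in the 3 libraries. Adding 1 FPKM before taking logs shrinks the fold of a gene this low. On that scale Ifi205 rose by 5.99 (SE 0.676, limma adjusted p = 0.0012), and 5.16 without nanoparticle library 1 (limma adjusted p = 7.8e-07). Since Ifi205 passed the filter only through its nanoparticle libraries, as stated above, it had to differ. Only 0.187% of the tested genes had a larger log2 change than Ifi205.

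Nanoparticle library 1 was the highest of the nanoparticle libraries for all 5 members, as it was for 42.3% of the tested genes. It lay more than 2-fold above the mean of the other nanoparticle libraries for 3 members, against 7.89% of the tested genes. The ratio was 5.81 for Ifi205, 2.54 for Ifi203, 2.04 for Mndal, 1.89 for Ifi204 and 1.12 for Aim2. The part of whatever sets this library apart in these values was not tested. As the counts without it show, none of the member calls rests on it.

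The order of the members by level turned over between the conditions. In vehicle, Aim2 and Mndal were highest and overlapped (Aim2 above Mndal in 2 of 3 libraries), followed by Ifi204, Ifi203 and Ifi205, each separated from the next in all 3 libraries without overlap of ranges. With nanoparticles, Ifi204, Mndal and Ifi205 overlapped in range and changed places between libraries, Ifi203 was below them in each library, and Aim2 was lowest in each. Aim2 made up 33.2% ± 1.47 of the summed FPKM of the 5 members in vehicle and 4.91% ± 1.98 with nanoparticles (SD, n = 3 each, exact permutation test, two-sided, p = 0.1, adjusted p = 0.167 over 5 members). Ifi205 made up 0.698% ± 0.437 in vehicle and 22.5% ± 11.5 with nanoparticles (exact permutation p = 0.1, adjusted p = 0.167), with 35.8% in nanoparticle library 1 and 15.1% and 16.6% in the others. Ifi204 went from 23.1% ± 1.80 to 33.1% ± 6.40 with no overlap (exact permutation p = 0.1, adjusted p = 0.167). The shares of Mndal (32.05% and 29.3%, exact permutation p = 0.5, adjusted p = 0.5) and Ifi203 (10.9% and 10.2%, exact permutation p = 0.2, adjusted p = 0.25) overlapped between groups. With 3 libraries against 3 this test cannot go below 0.1. The summed FPKM of the 5 members was 34.1, 34.1 and 35.7 in vehicle and 699, 269.8 and 272 with nanoparticles.

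**Figure D2:**
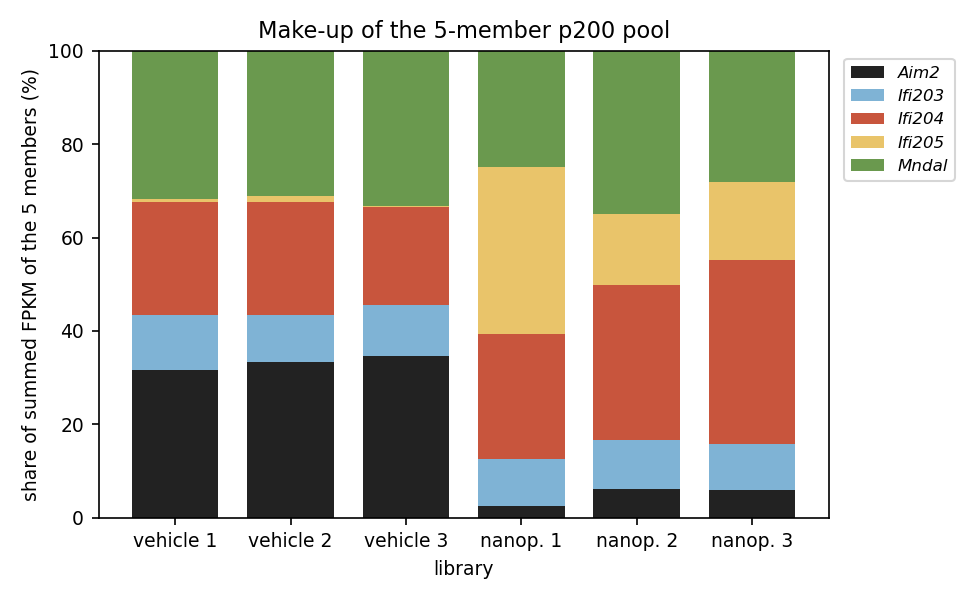
Share of each member in the summed FPKM of the 5 members, in percent, for each of the 6 libraries. The black Aim2 share is 31.7% to 34.6% in vehicle and 2.63% to 6.08% with nanoparticles, and the yellow Ifi205 share is at most 1.13% in vehicle and at least 15.1% with nanoparticles.

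Differences in response between members were compared within libraries for all 10 pairs, as the change of the log2 ratio of 1 member to another. The change of the log2 ratio of Aim2 to the other member was -2.499 for Ifi203, -2.64 for Mndal, -3.24 for Ifi204 and -5.47 for Ifi205 on the log2(FPKM + 1) scale. In each of these pairs the log2 ratios of the 3 nanoparticle libraries did not overlap those of the 3 vehicle libraries (exact permutation p = 0.1, the smallest possible, adjusted p = 0.111 over 10 pairs). These within-library ratios do not depend on how libraries are scaled, apart from the effect of the added 1 FPKM. For Ifi205 the ratio to Mndal changed by 2.82, and the ratios of Ifi204 and Ifi203 to Ifi205 changed by -2.23 and -2.97 (exact permutation p = 0.1, adjusted p = 0.111 for each). The ratio of Ifi204 to Mndal changed by 0.59 and that of Ifi203 to Ifi204 by -0.74 (exact permutation p = 0.1, adjusted p = 0.111 for each). Ifi203 and Mndal differed in response by -0.14 (exact permutation p = 0.4, adjusted p = 0.4), with overlapping groups. The 95% interval of the log2 change was 0.28 to 0.77 for Aim2, and the lowest bound among the other members was 2.15, for Ifi203.

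The rest of the family ran from silent to strongly raised. Of the 9 other p200 genes, 6 were tested and all 6 rose (17.0% of all tested genes were called higher). Their median log2 change was 3.38, and 4 of them passed when any 1 vehicle library was left out. Those fits called fewer of all genes too. Without vehicle library 3, 1114 of the 10682 tested genes were called higher, against 1817 with all libraries. Ifi203-ps and Ifi213 reached the filter only through nanoparticle libraries and so had to differ. Ifi211, formerly Mnda, was at 3.23, 2.12 and 2.55 FPKM in vehicle and 248.6, 126 and 130.04 FPKM with nanoparticles (log2 change 5.48, SE 0.286, limma adjusted p = 9.7e-05). Ifi206 was at 1.97, 1.22 and 1.02 FPKM in vehicle and 366, 71.2 and 73.2 FPKM with nanoparticles (log2 change 5.72, SE 0.636, limma adjusted p = 0.00113). Its pattern, with nanoparticle library 1 about 5 times the mean of the others, was like that of Ifi205. Ifi209, formerly Pyhin1, was at 11.9, 10.0 and 10.2 FPKM in vehicle and 304, 109 and 116 FPKM with nanoparticles (log2 change 3.76, SE 0.393, limma adjusted p = 0.000913).

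Ifi207 was the most abundant family gene in vehicle, at 22.4, 20.7 and 19.9 FPKM. It was at 69.8, 33.2 and 36.3 FPKM with nanoparticles, and rose by 1.03 on the log2 scale (SE 0.279, limma adjusted p = 0.0324). That call was lost when libraries were scaled by read totals (log2 change 0.70, limma adjusted p = 0.0948) or to an equal FPKM sum (0.58, limma adjusted p = 0.194). Ifi213 had a log2 change of 2.997 and the pseudogene Ifi203-ps of 1.46. Ifi214 had 0, 3 and 1 reads in the vehicle libraries and 535, 119 and 121 reads in the nanoparticle libraries, and was too low to be tested. Ifi202b had no read except 16 in nanoparticle library 1, and Ifi208 had at most 7 reads in any library. A count of 0 allows up to 3 reads in a library, for counting error only.

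**Figure D3:**
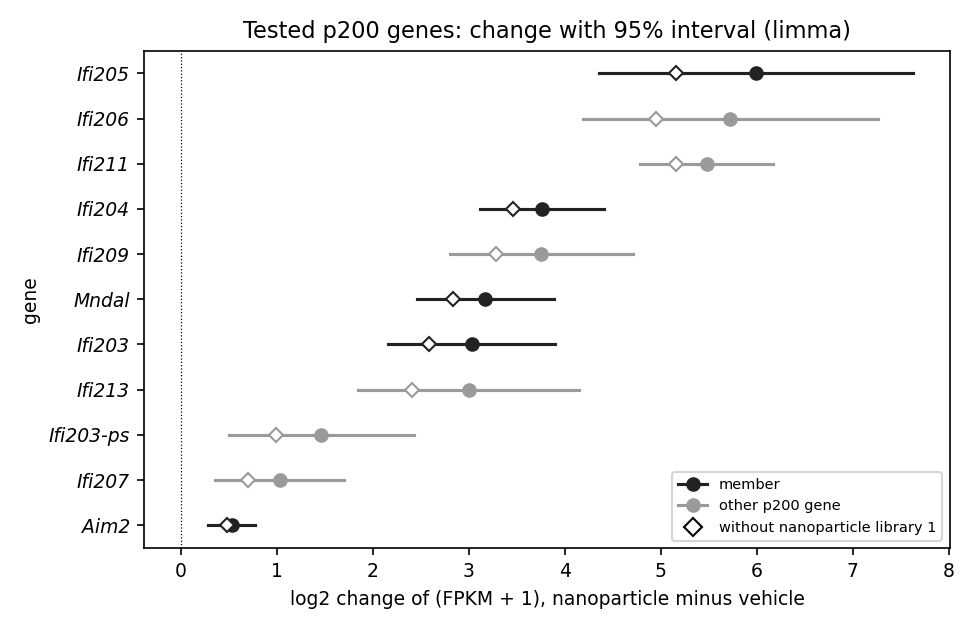
Log2 change of (FPKM + 1) between nanoparticle and vehicle libraries for the 11 tested p200 genes, with the 95% interval from limma. Black marks the 5 members, grey the other family genes, and open diamonds the value without nanoparticle library 1. Aim2 is the lowest at 0.53 and Ifi205 the highest at 5.99.

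On chromosome 1 the 14 family genes of the table occupy 680932 bases, with Aim2 at the left end and Ifi205 at the right. Among the tested genes, Aim2 had the smallest fitted log2 change and Ifi205 the largest, although without nanoparticle library 1 Ifi205 (5.157) and Ifi211 (5.159) were level. Ifi214 was not ranked. Ifi206, the neighbour of Aim2, had a log2 change of 5.72, while Ifi207 in the middle had 1.03. The table names 5 other genes within the cluster, and none reached the filter. The nearest genes outside it that did were far away. Dusp23, a phosphatase gene 718 kb to the left, had a log2 change of 0.12 (limma adjusted p = 0.711), and Slamf8, an immune receptor gene 760.3 kb to the left, rose by 1.51 (limma adjusted p = 0.00119). To the right, Fh1, which encodes fumarase, was at -0.65 (limma adjusted p = 0.13), and Kmo, an enzyme gene of tryptophan breakdown, fell by 1.75 (limma adjusted p = 0.00311), at 1569 and 1589 kb.

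**Figure D4:**
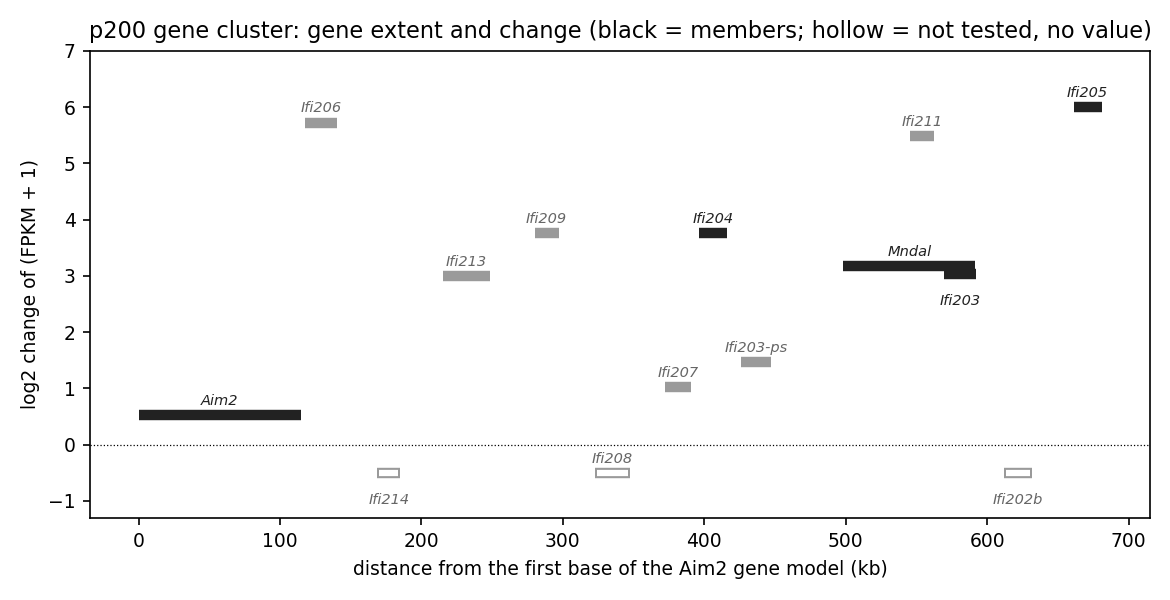
Extent of each p200 gene model, in kb from the first base of the Aim2 model, drawn at the height of its log2 change of (FPKM + 1). Black bars are the 5 members, grey bars other family genes, and hollow bars are genes that were not tested and are drawn below 0 without a value. Aim2, at the left end, lies at 0.53, and Ifi205, at the right end, at 5.99.

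Family genes resemble each other in sequence, so the share of each gene's transcript sequence that also occurs in another gene was computed from GENCODE M21. Of all distinct stretches of 50 bases, 0.742% of those of Aim2, 12.35% of Ifi203, 19.55% of Mndal, 20.02% of Ifi204 and 18.6% of Ifi205 also occurred in another gene. At 100 bases the shares were 0% for Aim2, 2.84% for Ifi203, 6.38% for Mndal, 10.7% for Ifi204 and 15.04% for Ifi205. Most of the shared sequence of Ifi204 and Ifi205 lay in Ifi211, of which 72.8% was shared at 50 bases. Ifi209 shared 33.75% and Ifi206 25.64% at 50 bases. Levels of Ifi203, Mndal, Ifi204, Ifi205, Ifi211, Ifi209 and Ifi206 are therefore less certain than that of Aim2. The sources used here do not give the read length or how reads matching several genes were counted.

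Genes whose libraries followed each member most closely were found by the distance over the 6 libraries between log2(FPKM + 1) values set to a vehicle mean of 0, among 10665 tested genes outside the family. For Aim2 they were Klra2, Nsrp1 and Slc20a1, at distances of 0.074, 0.092 and 0.095. Klra2, for example, had 2.88, 3.24 and 3.46 FPKM in vehicle and 5.36, 4.71 and 4.65 FPKM with nanoparticles. For Ifi203 they were H2-T22, Herc6 and Oas2 (0.234 to 0.290), for Ifi204 Xaf1, Ifitm3 and Mx2 (0.213 to 0.323), for Mndal Ifih1, Gm43814 and Oas3 (0.314 to 0.341) and for Ifi205 Cmpk2, Irf7 and Ifit2 (0.692 to 0.911). Irf7 had 366, 106 and 124 FPKM in nanoparticle libraries 1 to 3, from a vehicle mean of 1.98 FPKM.

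Of 23 inflammasome genes that act with or beside AIM2, 21 were tested, 13 rose and 2 fell, with a median log2 change of 1.06. Over all tested genes 17.0% were called higher and 16.2% lower. With read totals 12 rose and 2 fell, where 10.4% of all tested genes were called higher and 33.8% lower. With an equal FPKM sum 10 rose and 3 fell, where 8.28% of all tested genes were called higher and 39.7% lower. Pycard, which encodes ASC, was at 19.4, 19.0 and 19.2 FPKM in vehicle and at 4.14, 14.4 and 17.5 FPKM with nanoparticles. All 3 nanoparticle libraries were lower than vehicle, library 1 by far the most, and the change missed the threshold (log2 change -0.83, SE 0.466, limma adjusted p = 0.223). Pycard was called lower without nanoparticle library 1 (-0.26, limma adjusted p = 0.034) and with an equal FPKM sum (-1.34, limma adjusted p = 0.0409). Casp1, the protease that AIM2 and ASC activate, was at 40.2, 39.1 and 37.4 FPKM in vehicle and 213, 125 and 142 FPKM with nanoparticles (log2 change 1.98, SE 0.209, limma adjusted p = 0.000935).

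Gsdmd, the pore-forming substrate of caspase-1, averaged 31.3 ± 0.777 FPKM (SD, n = 3) in vehicle, against 51.4 ± 5.47 FPKM (SD, n = 3) in nanoparticle libraries. Gsdmd rose by 0.69 (log2, limma adjusted p = 0.00499), a call that was lost when libraries were scaled to an equal FPKM sum (0.24, limma adjusted p = 0.061). Of the cytokine substrates, Il1b had a log2 change of 8.26 (limma adjusted p = 2.0e-06), while Il18 had 0.43 (limma adjusted p = 0.0881). Further members with small adjusted p were Il1a (log2 change 7.24), Gm12250, which encodes the interferon-inducible GTPase Irgb10 (3.36), Casp4, the caspase that senses lipopolysaccharide in the cytosol (3.53), and Gbp2, a guanylate-binding protein gene (4.96). Nlrp1a (-1.06) and Nlrp1b (-1.28), which encode other inflammasome sensors, were the 2 that fell, and were singled out here after their values were seen. Nlrp1b reached the filter only through vehicle libraries and so had to differ. The same holds for Mefv, among the genes that rose, which reached it only through nanoparticle libraries.

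Among 22 tested genes of nucleic acid sensing and its brakes, 8 rose and 4 fell, with a median log2 change of 0.15. Over all tested genes 17.0% were called higher and 16.2% lower. Prkdc, among those that fell, reached the filter only through vehicle libraries and so had to differ. The genes for cGAS and STING themselves did not pass the test. Mb21d1, which encodes cGAS, was at 2.74, 2.69 and 2.73 FPKM in vehicle and 3.83, 2.94 and 2.82 FPKM with nanoparticles (log2 change 0.17, limma adjusted p = 0.329, and below 0 under both other scalings). Tmem173, which encodes STING, was at 28.1, 28.9 and 31.5 FPKM in vehicle and 18.3, 24.3 and 28.4 FPKM with nanoparticles, with overlap (log2 change -0.33, limma adjusted p = 0.194), and was called lower under both other scalings (-0.66, limma adjusted p = 0.0169 with read totals, and -0.80, limma adjusted p = 0.00291 with an equal FPKM sum). Irf3, the factor downstream of STING, had a log2 change of 0.10 (limma adjusted p = 0.477), and was below 0 under those scalings, at -0.21 (limma adjusted p = 0.114) with read totals and, called lower, -0.35 (limma adjusted p = 0.0439) with an equal FPKM sum.

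The kinase gene Tbk1 rose by 0.85 (limma adjusted p = 0.00339), a call lost with an equal FPKM sum (0.41, limma adjusted p = 0.103), and Irf7, an interferon-inducible factor that drives interferon transcription, rose by 5.83 (limma adjusted p = 0.000325). The RNA sensor genes rose together with the p200 genes, with log2 changes of 2.95 for Ddx58 (RIG-I), 3.06 for Ifih1 (MDA5) and 3.09 for Dhx58 (LGP2), and so did Zbp1, a sensor of Z-form nucleic acid, at 3.97. Each of these passed the limma test, at adjusted p from 2.1e-05 to 0.000505. With read totals 8 genes of this list rose and 6 fell (10.4% and 33.8% of all tested genes), and with an equal FPKM sum 6 rose and 7 fell (8.28% and 39.7% of all tested genes).

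Genes of interferon signalling belong to the pathway that induces many p200 genes. Of 16 tested genes 11 rose and 1 fell, with a median log2 change of 1.12, where 17.0% of all tested genes were called higher and 16.2% lower. With an equal FPKM sum 9 rose and 3 fell, where 8.28% of all tested genes were called higher and 39.7% lower. Ifnb1, the interferon-β gene, had 5, 0 and 0 reads in the vehicle libraries and 8, 43 and 53 reads in the nanoparticle libraries, and was too low to be tested. Nanoparticle library 1, where all 5 p200 members were highest, held the fewest Ifnb1 reads of the nanoparticle libraries. A link between Ifnb1 reads and the p200 values was not tested. The receptor genes Ifnar1 and Ifnar2 rose by 0.71 (limma adjusted p = 0.00187, lost with an equal FPKM sum at 0.27, limma adjusted p = 0.107) and 1.30 (limma adjusted p = 0.0021).

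The genes Stat2 and Irf9, whose products act together at the ISRE, rose by 2.02 (limma adjusted p = 0.00246) and 1.55 (limma adjusted p = 0.000183). Further members with small adjusted p were Irf1 (log2 change 2.46), an interferon regulatory factor, and the feedback inhibitors Usp18 (4.72), Socs1 (2.27) and Socs3 (2.33).

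**Figure D5:**
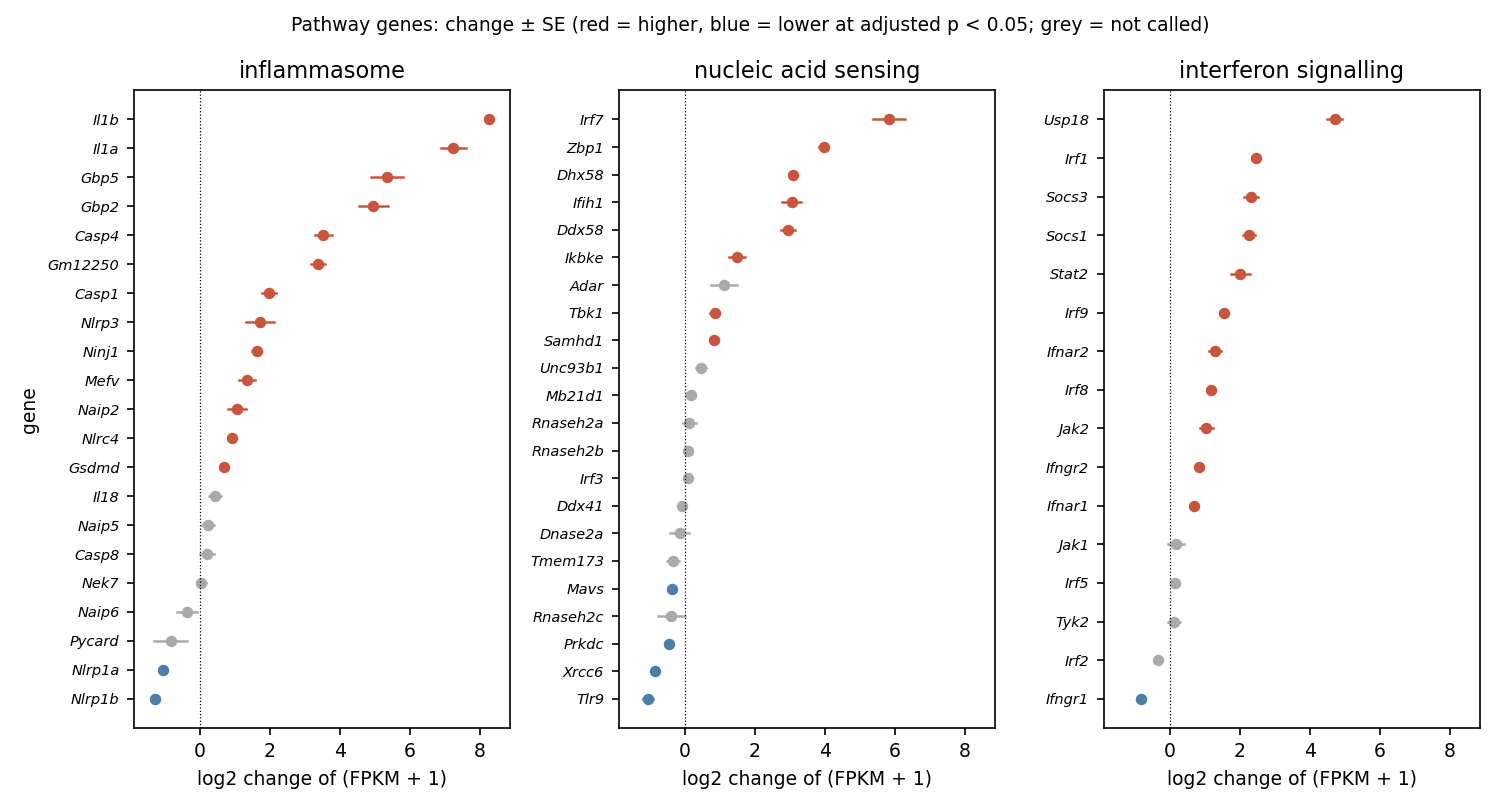
Log2 change of (FPKM + 1) with its standard error for the tested genes of the inflammasome, nucleic acid sensing and interferon signalling lists. Red genes were higher and blue genes lower at a limma adjusted p under 0.05, and grey genes were not called. Pycard, Mb21d1, Tmem173 and Irf3 are grey, while Il1b, Irf7 and Usp18 head their lists.

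Markers of cell types were read in the same libraries, since p200 genes differ in level between blood cells. The counts below stand beside 17.0% of all tested genes called higher and 16.2% called lower. Without nanoparticle library 1 the share called higher was 34.3%. In that fit 3263 of the 10682 tested genes were called lower, against 1733 with all libraries. Among dendritic cell markers Itgax was at 248 to 456 FPKM and Cd74 at 2270 to 5273 FPKM over all libraries, while Flt3 stayed under 1 FPKM, and of 9 tested markers 4 fell and 0 rose (median log2 change -0.43). Without nanoparticle library 1, 5 fell and 2 rose, Cd74 (0.29) and Batf3 (0.64), and the median was -0.22. Cd209a, among those that fell, reached the filter only through vehicle libraries and so had to differ. Of 11 macrophage markers, all tested, 4 rose and 4 fell, and their summed level was 1184 to 1309 FPKM in vehicle and 1515 to 1878 FPKM with nanoparticles. Those that rose were Cd14 (mean 60.0 to 531 FPKM), Adgre1, Cd68 and Fcgr1. Those that fell were Mrc1 (mean 56.3 to 7.77 FPKM), C1qa, C1qb and C1qc. The sum thus mixes opposite changes. Of 6 B cell markers 5 stayed under 1 FPKM, and the 6 summed to 1.72 to 2.35 FPKM in vehicle and 0.249 to 0.748 FPKM with nanoparticles, and the 7 T and NK cell markers, all under 1 FPKM, to at most 0.538 FPKM. The 11 neutrophil markers summed to 275 to 308 FPKM in vehicle and 189 to 288 FPKM with nanoparticles, while 5 of them, Ly6g, Elane and Mpo included, stayed under 1 FPKM. Of the 4 tested, Mmp8 fell from a mean of 244.6 to 130.05 FPKM and S100a8 rose from 34.9 to 83.1 FPKM, while Mmp9 averaged 9.65 and 27.8 FPKM and S100a9 1.19 and 7.93 FPKM. Without nanoparticle library 1, 3 of these 4 rose and 1 fell. The 7 mast cell and basophil markers summed to at most 2.65 FPKM. Markers of plasmacytoid dendritic cells, which are strong interferon producers, summed to 100.4 to 108 FPKM in vehicle and 789 to 1048 FPKM with nanoparticles. Nearly all of that was Bst2, which is itself interferon-inducible, and the defining markers Siglech and Ccr9 were under 1 FPKM in every library. All 3 tested markers of this list rose, with a median log2 change of 2.31. Beside Bst2 these were Ly6c2 (2.31, limma adjusted p = 0.0156) and Cox6a2 (1.12, limma adjusted p = 0.0127). Cox6a2 reached the filter only through nanoparticle libraries and so had to differ. The part of these marker changes in the p200 values was not tested.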

How the data were processed

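Per the labels, RNA was isolated with the NucleoSpin miRNA kit and sequencing libraries came from the NEBNext Ultra II RNA kit. STAR 2.5, HTSeq, edgeR 3.16.5, DESeq2 and CASAVA, and the builds mm10 and hg19, are named in the submitters' processing notes without their roles. The authors deposited 1 value per gene and library in 2 tables with identical values. These deposited values are treated as FPKM, scaled by the authors to gene length and a library factor, a unit deduced from the values. Multiplied by GENCODE M21 exon lengths, 95.8% to 96.1% of values above 0 came within 0.01 of whole reads. Of genes reaching 50 reads, 607 gave no whole reads at the annotated length, and another length was used for 546 of these in the read totals. The authors' library scale was not the read total.

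Genes reaching 1 FPKM in 3 or more libraries were tested with limma 3.58.1 in R 4.3.3 on log2(FPKM + 1), with a mean-variance trend and group as the single term. Fits that left out a library kept this gene set. Permutation tests were exact (scipy 1.17.1, Python 3.11.15). The fit was tested on simulated data. Titles gave groups and replicate numbers. Alternatives covered pseudocount, filter, scaling, trend, robust moderation, limma-voom, a replicate block and leaving out each library. Genes named are the members, the other p200 genes, core components of each list with its 4 smallest adjusted p, 2 neighbours per side and the 3 most alike genes per member. Mefv and Prkdc are named for a limit of the filter. Members and lists were chosen with earlier results of these data known. Some list genes were not used or are not reported here. Promoter windows are those of RefSeq on GRCm38.p6, found for 4 of 5 members.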

Additional observations from a re-analysis of the deposited data

How the results depend on the processing

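Ifi203, Ifi204, Ifi205 and Mndal kept their direction and stayed past the threshold under all 16 alternatives. Aim2 kept its direction under all 16 and lost its call under 4 of them, at log2 changes of 0.093 with an equal FPKM sum and 0.21 with read totals, and without vehicle library 1 or 2; over the fits without 1 library it ran from 0.48 to 0.58. Those 2 scalings shift all genes, to medians of -0.44 and -0.28 (log2) over all tested genes, against -0.001 with the authors' scale. Which scale is right was not tested. The count of all genes past the threshold ran from 2141 to 6923 over the fits that left out 1 library, with the highest count without nanoparticle library 1, and those without vehicle library 1, 2 and 3 gave 2226, 2188 and 2141. Scaling by read totals gave 1107 higher and 3610 lower calls, and an equal FPKM sum 884 and 4241, in place of 1817 and 1733. The difference in response between Ifi203 and Mndal changed sign to 0.023 with a pseudocount of 0.1. Deviations of same-numbered libraries correlated at 0.065, 0.113 and -0.058, and those of different-numbered libraries at -0.129 to 0.108. With so few libraries these values cannot decide whether replicate numbers pair the samples. With the replicate number as a block all 5 members still passed (Aim2 at 0.53, limma adjusted p = 0.0472) and 2785 genes were called. Reads of 8 to 32 per vehicle library limit the fold of Ifi205.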
